A study of Mus musculus with 8 samples.

Results

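Interneuron identity was read from 10 genes in hippocampal RNA of mice exposed before birth to dexamethasone or saline. The genes are Gad1, Gad2 and Slc32a1, which make and package the transmitter GABA, the class markers Pvalb, Sst, Vip, Npy and Cck, and the transcription factors Lhx6 and Dlx1. They were taken by symbol from the 24421 genes of the count tables, and all 10 were found and passed the filter on low counts. All mice were labelled male wildtype C57BL/6J. Offspring of dams injected intraperitoneally with dexamethasone, a synthetic glucocorticoid, at 1 mg/kg per day for 5 days from 14.5 days post coitum are called IUGR (intrauterine growth retardation), and offspring of dams given saline are called NS. Hippocampi were taken at week 8 and at postnatal day 3, which gave week 8 IUGR, week 8 NS, day 3 IUGR and day 3 NS, each with 2 libraries (n = 2 per group throughout). The labels do not say whether the 2 libraries of a group came from separate animals or litters, and the p-values therefore reflect no more than the spread among these libraries, part of which may be technical.

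GABAergic interneurons are the local inhibitory neurons of the hippocampus. They are born in the ganglionic eminences of the embryonic forebrain, where Dlx and Lhx6 transcription factors specify them, migrate tangentially into the hippocampus and mature after birth. Classes that inhibit different parts of the pyramidal cell are told apart in the adult by parvalbumin and by the neuropeptides somatostatin, vasoactive intestinal peptide, neuropeptide Y and cholecystokinin. Because whole hippocampus was sequenced, fewer cells of a type and less RNA per cell cannot be told apart in any value below.

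The libraries held between 13030277 and 18993050 counts, so that a count of 0 would allow up to between 0.158 and 0.23 CPM (counts per 1000000 counts of the library). Intervals and floors cover counting error only. At week 8 the libraries fell into 2 kinds by replicate number rather than by treatment. Rpph1, the RNA of ribonuclease P, took 6.49% of counts in IUGR and 7.69% in NS in the libraries numbered 1, and at most 2 counts in those numbered 2. At postnatal day 3 the libraries numbered 2 went against their male label, with 5130 (IUGR) and 4998 (NS) counts of the X-inactivation RNA Xist, against 81 and 4 in those numbered 1. The hippocampal label itself was borne out by the pyramidal-cell factor Neurod6, which read between 133 and 544 CPM, and the granule-cell factor Prox1, between 10.8 and 66.6 CPM. Results of the 10 genes that rest on these libraries are given with and without them, while other genes and gene lists are given over all libraries.

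Per kilobase of the deposited gene length, the scale on which genes can be compared with each other, the order of the 10 genes differed between the ages. In week 8 IUGR libraries Cck had the highest level (276 ± 145 CPM per kb, mean ± SD), followed by Sst (246 ± 141) and Gad1 (78.9 ± 11.9), and in week 8 NS the same 3 led with 306 ± 207, 245 ± 186 and 83.7 ± 18.5 CPM per kb. The means of Cck and Sst were closer to each other than the spread between the 2 libraries of either group. Within each of the 4 week 8 libraries, however, Cck was above Sst. The values were 173.7 against 146 and 379.2 against 345.9 CPM per kb in IUGR (replicates 1 and 2). In NS they were 160.4 against 113.5 and 452.6 against 376.9. This order was not tested. In the middle of the order stood Pvalb (53.8 ± 21.9 in IUGR, 49.6 ± 23.9 in NS), Npy (47.9 ± 2.32 and 53.5 ± 2.60), Gad2 (24.9 ± 1.48 and 27.0 ± 0.853), Vip (22.9 ± 12.3 and 15.9 ± 6.49) and Slc32a1 (14.5 ± 9.80 and 20.9 ± 21.4). Pvalb and Npy could not be ordered against each other, nor could Gad2, Vip and Slc32a1, whose gaps were within the larger SD of each pair except that Gad2 exceeded Vip in NS and Slc32a1 in IUGR by more than it. Lhx6 and Dlx1 came last at week 8, at 3.36 ± 0.85 and 2.05 ± 0.42 CPM per kb in IUGR and 4.05 ± 1.81 and 3.02 ± 2.08 in NS. At postnatal day 3 Sst led (109 ± 37.0 in IUGR, 138 ± 9.53 in NS), then Npy (90.7 ± 5.37 and 79.8 ± 19.3) and Cck (76.6 ± 27.8 and 69.0 ± 12.9). Gad1 stood at 44.5 ± 17.5 CPM per kb in IUGR and 42.1 ± 5.57 in NS. The 2 lowest genes at day 3 were Pvalb (3.83 ± 4.08 in IUGR, 0.836 ± 0.110 in NS) and Vip (2.17 ± 0.98 and 2.50 ± 0.163). In IUGR Sst, Npy and Cck did not differ beyond their spread, though Sst was above Cck within both libraries. In NS Sst stood above Npy by more than the SD of either, while Npy and Cck did not differ beyond theirs.

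**Figure D1:**
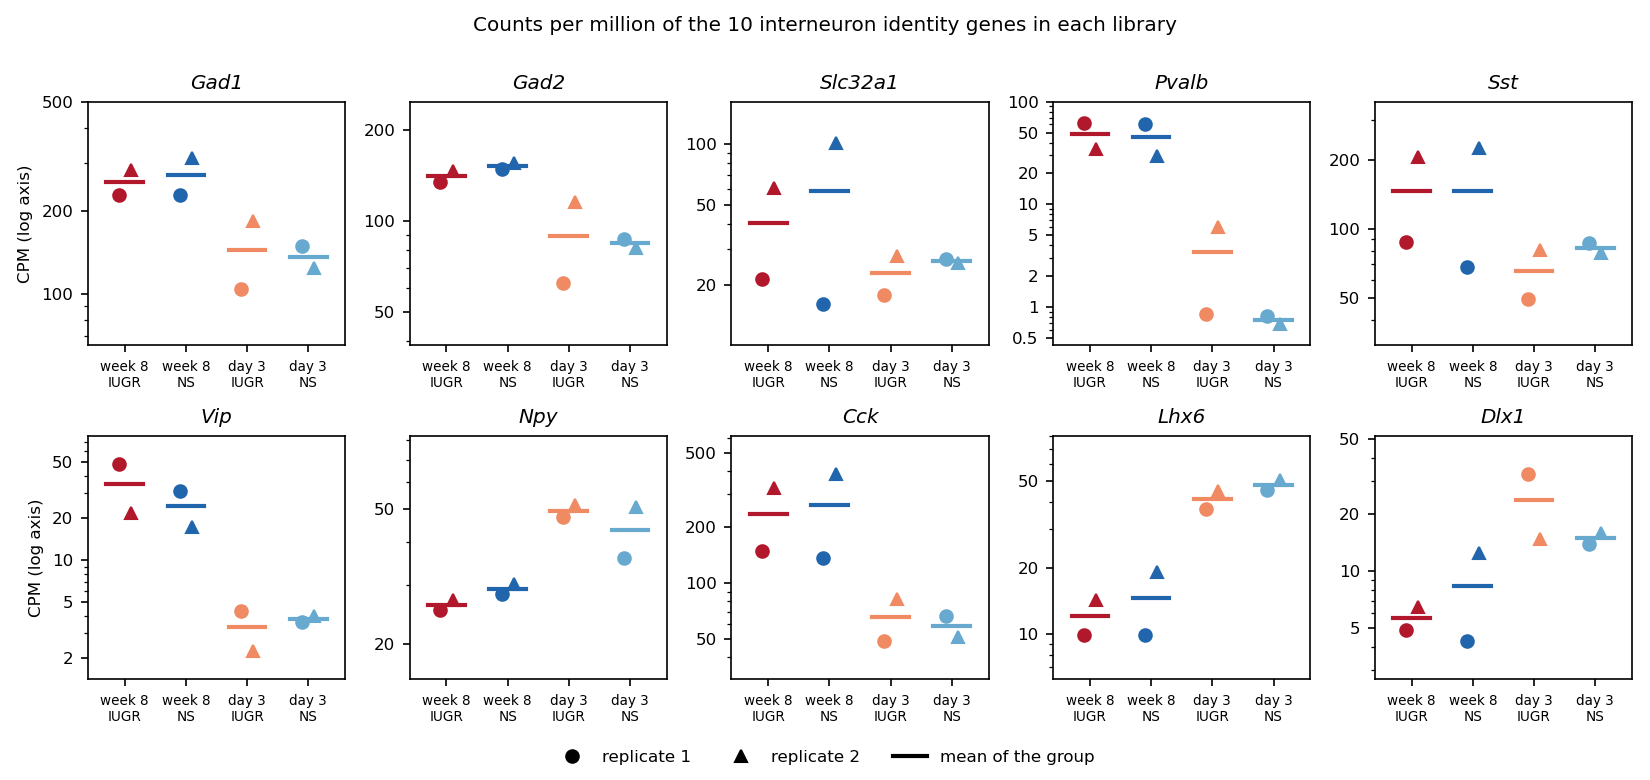
Level of each of the 10 genes (CPM, log axes that differ between panels) in the 2 libraries of week 8 IUGR, week 8 NS, day 3 IUGR and day 3 NS; circles are replicate 1, triangles replicate 2 and lines group means. Vip, Cck, Gad1, Gad2 and Pvalb were higher in all 4 week 8 libraries than in all 4 day 3 libraries, Npy, Lhx6 and Dlx1 were lower, and Slc32a1 and Sst overlapped.

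The comparison of ages asked how the interneuron genes differed between the adult and the neonatal hippocampus. Pvalb and Vip rose most by week 8, Cck, Gad1 and Gad2 rose less, and Npy, Lhx6 and Dlx1 fell. Slc32a1 and Sst did not pass the edgeR test. Averaged over both treatments, 8 of the 10 genes were therefore called (5 higher and 3 lower; edgeR quasi-likelihood F test, Benjamini-Hochberg adjusted p under 0.05 over 15999 genes), against 36% of all genes tested (19.1% higher and 16.9% lower). The same 8 genes did not overlap between the 4 week 8 and the 4 day 3 libraries, which was true of 47.1% of all genes. The median log2 fold change of the 10 genes was 1.02, against 0.02 over all genes.

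Gad1 encodes GAD67, the glutamate decarboxylase that makes most GABA of the cell body (chromosome 2, 70553072 to 70602014, plus strand; all gene positions are of GRCm38 in GENCODE release M21). It read 228 and 282 CPM in week 8 IUGR, 228 and 313 CPM in week 8 NS, 104 and 184 CPM in day 3 IUGR and 149 and 123 CPM in day 3 NS (replicates 1 and 2). Every week 8 library was above every day 3 library, and on a log scale the day 3 IUGR pair was the most spread. The change was 0.98 ± 0.24 on the log2 scale (± SE; adjusted p = 0.0204). The call was lost without week 8 IUGR replicate 2 (adjusted p = 0.0536) or without day 3 IUGR replicate 1 (0.073), NS replicate 1 (0.0697) or NS replicate 2 (0.0943).

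Gad2 encodes GAD65, the decarboxylase of nerve terminals (chromosome 2, 22622205 to 22693874, plus strand). Its levels were 134 and 146 CPM in week 8 IUGR, 148 and 155 CPM in week 8 NS, 62.0 and 116 CPM in day 3 IUGR and 87.0 and 81.3 CPM in day 3 NS. The ages did not overlap, and the 4 week 8 libraries lay close together. Gad2 rose by 0.82 ± 0.21 (log2; adjusted p = 0.0251), a call that was lost without week 8 IUGR replicate 2 (0.061) or without day 3 IUGR replicate 1 (0.0652), NS replicate 1 (0.0932) or NS replicate 2 (0.105). The ratio of Gad2 to Gad1 per kilobase within a library was 0.339 and 0.297 in week 8 IUGR, 0.373 and 0.285 in week 8 NS, 0.343 and 0.361 in day 3 IUGR and 0.336 and 0.379 in day 3 NS. These ranges overlapped between the ages, and the log2 difference of -0.14 did not pass an exact two-sided permutation test of 4 against 4 libraries (p = 0.229, adjusted p = 0.343 over 3 ratios).

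Slc32a1 encodes VGAT, the transporter that loads GABA and glycine into synaptic vesicles (chromosome 2, 158610767 to 158615748, plus strand). It read 21.3 and 60.2 CPM in week 8 IUGR, 16.1 and 101 CPM in week 8 NS, 17.7 and 27.9 CPM in day 3 IUGR and 26.7 and 25.7 CPM in day 3 NS. The libraries numbered 2 at week 8 stood far above those numbered 1, which were within or below the day 3 range. Its pooled log2 fold change was 1.07 ± 0.60 (adjusted p = 0.2). Without both week 8 libraries numbered 1 the value was 1.74 (adjusted p = 7.31e-05), without both numbered 2 it was -0.33 (0.17), and without week 8 NS replicate 1 alone it was 1.46 (0.0247). The ratio of Slc32a1 to the sum of Gad1 and Gad2 per kilobase was 0.0805 and 0.189 in week 8 IUGR, 0.0592 and 0.290 in week 8 NS, 0.147 and 0.129 in day 3 IUGR and 0.155 and 0.174 in day 3 NS, so the vesicular transporter and the synthetic enzymes did not keep 1 proportion across the week 8 libraries (log2 difference between ages -0.24, exact permutation p = 0.686, adjusted p = 0.686). An antisense gene shares 24.9% of the exon bases of Slc32a1 in this annotation, and the strand setting of the counting is not given in the sources used here, so reads of the pair cannot be told apart.

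Pvalb encodes parvalbumin, a calcium buffer of fast-spiking basket and axo-axonic cells that appears in the rodent hippocampus after the first postnatal week (chromosome 15, 78191114 to 78206400, minus strand). It read 62.6 and 34.6 CPM in week 8 IUGR (925 and 504 counts), 60.1 and 29.5 CPM in week 8 NS (783 and 561 counts), 0.850 and 6.06 CPM in day 3 IUGR (15 and 110 counts) and 0.825 and 0.685 CPM in day 3 NS (12 and 12 counts). The 95% Clopper-Pearson intervals at day 3 were 0.476 to 1.40 and 4.98 to 7.31 CPM in IUGR and 0.427 to 1.44 and 0.354 to 1.20 CPM in NS. Thus 3 of the 4 neonatal libraries were indistinguishable at this depth and day 3 IUGR replicate 2 stood apart.

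Pvalb had the largest age difference of the 10 genes, 4.91 ± 0.67 on the log2 scale (adjusted p = 0.00285). It was 3.92 ± 0.88 in IUGR (adjusted p = 0.0291) and 5.90 ± 1.00 in NS (adjusted p = 0.0157). The averaged call held under every single library left out, with log2 values between 4.50 and 5.91 and adjusted p between 0.004 and 0.026. The call in IUGR was lost without any of 5 libraries, week 8 IUGR replicate 1 (adjusted p = 0.0631) or 2 (0.0613), day 3 IUGR replicate 1 (0.0968) and day 3 NS replicate 1 (0.0718) or 2 (0.0716), and the call in NS without day 3 NS replicate 1 (0.141) or 2 (0.146).

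Vip encodes vasoactive intestinal peptide, carried by interneurons many of which inhibit other interneurons (chromosome 10, 5639218 to 5647617, plus strand). It read 48.3 and 21.7 CPM in week 8 IUGR, 31.2 and 17.2 CPM in week 8 NS, 4.37 and 2.26 CPM in day 3 IUGR and 3.65 and 4.00 CPM in day 3 NS. All week 8 libraries were above all day 3 libraries, and at week 8 the libraries numbered 1 were the higher ones. Vip rose by 3.09 ± 0.39 (log2; adjusted p = 0.00222), by 3.50 ± 0.56 in IUGR (adjusted p = 0.0115) and by 2.69 ± 0.54 in NS (adjusted p = 0.0246). The averaged call held with any 1 library left out (adjusted p up to 0.0202). In IUGR it was lost without day 3 IUGR replicate 1 (0.0791) or 2 (0.0939), and in NS without day 3 IUGR replicate 1 (0.0506) or day 3 NS replicate 1 (0.186) or 2 (0.171).

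Cck encodes cholecystokinin, carried by a class of basket cells and also transcribed in pyramidal cells (chromosome 9, 121489824 to 121495694, minus strand). It read 148 and 324 CPM in week 8 IUGR, 137 and 387 CPM in week 8 NS, 48.6 and 82.2 CPM in day 3 IUGR and 66.8 and 51.1 CPM in day 3 NS. The lowest week 8 library was above the highest day 3 library, with the libraries numbered 2 far above those numbered 1 at week 8. Cck rose by 2.07 ± 0.43 (log2; adjusted p = 0.0121). The change was 2.58 without both week 8 libraries numbered 1 and 1.27 without both numbered 2, and the call was lost without day 3 IUGR replicate 1 (adjusted p = 0.0602), NS replicate 1 (0.0516) or NS replicate 2 (0.0624). Of 25 genes of hippocampal excitatory neurons, 19 were also higher in the libraries numbered 2 in both week 8 groups, 4 were lower in both and 2 were mixed. Their summed level was 2155 and 8239 CPM in week 8 IUGR, 2126 and 8965 CPM in week 8 NS and between 1271 and 1455 CPM at day 3. The abundant Camk2a and Slc17a7 gave most of it in the week 8 libraries numbered 2. The part of these 25 genes in the result was not tested.

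Sst encodes somatostatin, of dendrite-targeting oriens-lacunosum moleculare cells and long-range GABA neurons (chromosome 16, 23889573 to 23890958, minus strand). It read 87.4 and 207 CPM in week 8 IUGR, 68.0 and 226 CPM in week 8 NS, 49.6 and 80.9 CPM in day 3 IUGR and 86.8 and 78.7 CPM in day 3 NS. Week 8 IUGR replicate 1 was level with the highest day 3 library, and week 8 NS replicate 1 was below 3 of the 4 day 3 libraries. The pooled log2 fold change was 1.07 ± 0.45 (adjusted p = 0.105). Without both week 8 libraries numbered 1 it was 1.63 (adjusted p = 0.000134), without both numbered 2 it was 0.14 (0.533), and without week 8 NS replicate 1 alone it was 1.38 (0.0209). DESeq2 on all libraries called Sst with a log2 fold change of 1.09 (adjusted p = 0.0429).

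Npy encodes neuropeptide Y, of neurogliaform, ivy and many somatostatin cells (chromosome 6, 49822710 to 49829507, plus strand). Its levels were 25.2 and 27.0 CPM in week 8 IUGR, 28.2 and 30.2 CPM in week 8 NS, 47.3 and 51.5 CPM in day 3 IUGR and 36.0 and 50.9 CPM in day 3 NS. Npy was thus the only neuropeptide of the 4 that was lower in every adult library, and the replicate number at week 8 made little difference to it. It fell by 0.68 on the log2 scale (SE 0.16, adjusted p = 0.0192), a call that was lost without day 3 IUGR replicate 1 (0.0686), IUGR replicate 2 (0.0799) or NS replicate 2 (0.0898).

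The promoters of the 4 neuropeptide genes are shown because Vip and Cck rose with age and Npy fell, while Sst did not pass the edgeR test. Each line gives bases just upstream of the RefSeq transcript start on the gene's own strand, 5′ to 3′ (RefSeq, GRCm38.p6). Capitals mark TGACG on either strand, the core of the cAMP response element, which is bound by CREB, and in Sst the whole palindrome TGACGTCA that contains it.
Sst: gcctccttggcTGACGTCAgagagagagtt
Vip: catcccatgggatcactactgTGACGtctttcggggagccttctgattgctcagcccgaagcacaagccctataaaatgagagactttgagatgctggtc
Cck: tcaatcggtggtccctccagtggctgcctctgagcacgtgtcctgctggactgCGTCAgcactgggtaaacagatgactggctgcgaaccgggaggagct
Npy: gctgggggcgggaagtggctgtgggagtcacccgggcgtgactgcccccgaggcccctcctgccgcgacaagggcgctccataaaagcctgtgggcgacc
The windows were chr16:23890874-23890903 (minus strand, 30 bases), chr10:5639118-5639217 (plus), chr9:121495695-121495794 (minus) and chr6:49822610-49822709 (plus). For Sst only 30 bases around the element are printed, because the GENCODE gene starts upstream of the RefSeq one. All 10 genes had a promoter entry, with 13 windows of 100 bases in all, and 4 of these 13 windows (1 each of Gad2, Sst, Vip and Cck) held TGACG, as did 10.5% of 32851 promoter windows of that length. TGACGTCA was found in Sst alone among the 10 and in 1.15% of all windows. A match is a description of these letters and not of binding.

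Lhx6 encodes a LIM-homeodomain factor that specifies the parvalbumin and somatostatin lineages of the medial ganglionic eminence and is kept in the mature cells (chromosome 2, 36081953 to 36105408, minus strand). It read 9.87 and 14.2 CPM in week 8 IUGR, 9.90 and 19.1 CPM in week 8 NS, 37.3 and 45.0 CPM in day 3 IUGR and 45.4 and 50.4 CPM in day 3 NS. The highest week 8 library was below the lowest day 3 library. Lhx6 fell by 1.68 on the log2 scale (SE 0.26, adjusted p = 0.00437), a call that held with any 1 library left out (values between -1.97 and -1.48, adjusted p up to 0.0262).

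In each treatment alone the Lhx6 change was -1.67 ± 0.37 in IUGR (adjusted p = 0.0279) and -1.69 ± 0.37 in NS (adjusted p = 0.0299). The call in IUGR was lost without any of 6 libraries, that is without any except the 2 of week 8 NS (adjusted p between 0.0705 and 0.154), and that in NS without any of the 4 day 3 libraries (between 0.0726 and 0.176).

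Dlx1 encodes a distal-less homeodomain factor of the embryonic GABA lineage, kept in adult calretinin, somatostatin and neuropeptide Y cells (chromosome 2, 71528113 to 71533981, plus strand). It read 4.87 and 6.51 CPM in week 8 IUGR, 4.30 and 12.5 CPM in week 8 NS, 32.6 and 14.9 CPM in day 3 IUGR and 14.0 and 15.9 CPM in day 3 NS. Every week 8 library was below every day 3 library, and day 3 IUGR replicate 1 held more than the other 3 neonatal libraries. Dlx1 fell by 1.38 on the log2 scale (SE 0.41, adjusted p = 0.0408). The call was lost without week 8 IUGR replicate 1 (0.0886) or 2 (0.0783) or without day 3 IUGR replicate 1 (0.141), NS replicate 1 (0.0999) or NS replicate 2 (0.115). Dlx1as, the antisense gene that shares 6.21% of the exon bases of Dlx1, read 10.6 and 10.6 CPM in week 8 IUGR, 11.6 and 12.1 CPM in week 8 NS, 29.8 and 27.9 CPM in day 3 IUGR and 34.1 and 34.7 CPM in day 3 NS. It was lower at week 8 too, but was not raised in day 3 IUGR replicate 1.

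**Figure D2:**
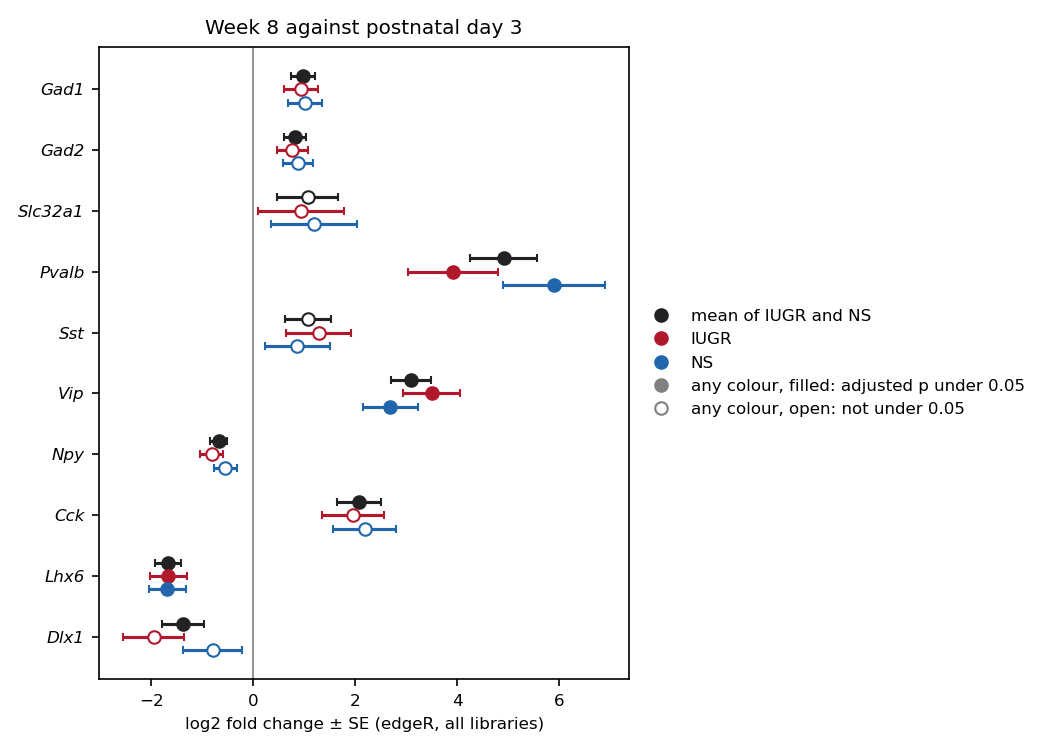
Week 8 against postnatal day 3: log2 fold change ± SE of each gene averaged over treatments (black), in IUGR (red) and in NS (blue), from edgeR over all 8 libraries; filled points have an adjusted p under 0.05. Pvalb and Vip lie farthest to the right, and Lhx6 at -1.67 and -1.69 in IUGR and NS is the fallen gene whose 2 values differ least.

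Tested within each treatment, 3 of the 10 genes passed in IUGR (16.8% of all genes) and 3 in NS (14.1% of all genes), and these were Pvalb, Vip and Lhx6 in both. Fitted with edgeR on the libraries of 1 treatment alone, the calls of Pvalb in IUGR (adjusted p = 0.0685) and of Vip (0.0542) and Lhx6 (0.0959) in NS were lost. The age differences of the 2 treatments were not called different for any of the 10 genes or for any other gene (0% of all genes by edgeR), and at an unadjusted p under 0.05 for none of the 10 and 82 genes in all (0.513%). DESeq2 called none. With week 8 libraries of 1 kind, 10 of the 10 genes were called without both libraries numbered 1 and 8 without both numbered 2, where 69.4 and 54.3% of all genes were called. Without both day 3 libraries numbered 2, which leaves 1 neonatal library per treatment, no gene of the 10 and 42 of all genes passed. The values were then 5.84 for Pvalb (adjusted p = 0.059), 2.92 for Vip (0.0866) and -1.58 for Lhx6 (0.12).

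Other genes of the same functions were counted in lists, to be read against 19.1% of all tested genes that rose and 16.9% that fell. Of 11 genes of GABA turnover and uptake, 6 rose by week 8 and none fell (median log2 fold change 1.05). Lists of glial genes rose as well. Of 10 genes each, 8 of astrocytes, 7 of oligodendrocytes and 9 of microglia rose and none fell (medians 1.48, 2.90 and 1.56). The part of glia in the rise of the GABA turnover genes was not tested. Glul, the astrocytic glutamine synthetase, rose by 2.63 ± 0.20 (adjusted p = 0.00055), and Pdxk, a kinase in the making of the pyridoxal phosphate cofactor of the decarboxylases, rose by 1.37 ± 0.24 (0.00638). Of 24 tested lineage transcription factors, 4 rose and 6 fell (median -0.65). Those that fell most were Lhx8 of cholinergic and GABA lineages (-6.53 ± 0.92, adjusted p = 0.00326), Sp8 of the caudal eminence and olfactory lineage (-2.94 ± 0.49, 0.00547) and Zfhx3 (-2.69 ± 0.68, 0.0235). Lhx8 read at most 0.135 CPM at week 8, so the size of its fall is poorly set. Zfhx3 read 20.0 and 100.8 CPM in day 3 IUGR and 39.6 and 34.25 CPM in day 3 NS. At week 8 it read 10.0 and 3.70 CPM in IUGR and 11.5 and 2.79 CPM in NS, and thus differed between the 2 kinds of library. Those that rose most were Nkx6-2 (5.74 ± 0.32, adjusted p = 0.000258), Prox1 (1.53 ± 0.38, 0.0222) and St18 (1.43 ± 0.32, 0.0165), of which Nkx6-2 is also a factor of oligodendrocytes and Prox1 of granule cells.

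Among 35 further interneuron class genes, 11 rose and 9 fell (median 0.14). Lamp5, of neurogliaform cells, rose by 3.77 ± 0.34 (adjusted p = 0.000884), Npy2r, a neuropeptide Y receptor, by 3.45 ± 0.76 (0.0148; 14.6 and 94.5 CPM in week 8 IUGR and 22.3 and 73.7 CPM in week 8 NS) and Rbp4 by 2.44 ± 0.33 (0.00277). Chodl, of long-range somatostatin cells, fell (-3.68 ± 0.58, adjusted p = 0.00469), as did Reln (-1.79 ± 0.55, 0.0435) and Sema3c (-1.50 ± 0.20, 0.00284). Reln read 242 and 43.3 CPM in week 8 IUGR and 192 and 77.1 CPM in week 8 NS, and thus differed between the 2 kinds of week 8 library. Reln also marks Cajal-Retzius cells, and of 10 tested genes of that cell type, Reln among them, 9 fell. Their summed level, which includes Reln, was 336 and 120 CPM in week 8 IUGR and 306 and 168 CPM in week 8 NS. At day 3 the sum was between 624 and 850 CPM, and Reln itself gave between 445 and 599 CPM. The part of the other genes of this list in the fall of Reln was not tested.

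Of 25 genes of parvalbumin cell physiology and the perineuronal net, 20 rose and 2 fell (median 1.94). Hapln4, a link protein of the net, read 22.4 and 96.1 CPM in week 8 IUGR and 17.3 and 117 CPM in week 8 NS, against 0.624 and 1.27 CPM in day 3 IUGR and 0.825 and 0.913 CPM in day 3 NS. It rose by 6.18 ± 0.87 (adjusted p = 0.00321) and the nicotinic receptor modulator Lynx1 by 3.94 ± 0.34 (0.000778). Hapln4 and Lynx1 were higher in the week 8 libraries numbered 2, unlike Pvalb itself, which was higher in those numbered 1. The 2 that fell were Gjd2, the neuronal gap junction protein connexin 36 (-2.19 ± 0.34, adjusted p = 0.00432), and Tac1 (-1.21 ± 0.24, 0.00954). Many genes of this list are transcribed in other neurons as well.

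Of 12 tested receptors for somatostatin, vasoactive intestinal peptide, neuropeptide Y and cholecystokinin, 7 rose and none fell. Vipr1 rose by 3.61 ± 0.46 (adjusted p = 0.00229), Npy2r by 3.45 ± 0.76 (0.0148) and Sstr3 by 3.10 ± 0.29 (0.000916). Npy2r therefore rose while its ligand gene Npy fell. Over the same ages 7 of 16 pan-neuronal genes rose and 5 fell, and 11 of 25 genes of hippocampal excitatory neurons rose and 2 fell. Of 17 genes of striatal and other GABA projection neurons, 1 rose and 8 fell. These counts too stand against 19.1% of all tested genes that rose and 16.9% that fell. The striatal list summed to 357 and 452 CPM in week 8 IUGR, 305 and 485 CPM in week 8 NS, 549 and 659 CPM in day 3 IUGR and 444 and 689 CPM in day 3 NS, and its part in the levels of Gad1, Gad2 and Dlx1 was not tested.

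The transcripts that mark the 2 main medial eminence classes were compared as the ratio of Sst to Pvalb per kilobase within a library. This ratio does not depend on library scaling. It is not a measure of the balance of cells, because parvalbumin appears only after the first postnatal week. Pvalb held between 12 and 110 counts at day 3. It was 2.11 and 9.04 in week 8 IUGR, 1.71 and 11.5 in week 8 NS, 87.8 and 20.1 in day 3 IUGR and 159 and 173 in day 3 NS. The adult ratio differed between the 2 kinds of week 8 library, and the highest adult ratio was below the lowest neonatal one. The log2 difference of -4.25 had an exact two-sided permutation p of 0.0286, the smallest that 4 against 4 libraries allow. Its adjusted p over the 3 ratios was 0.0857. A ratio at this smallest p could not pass after adjustment unless another ratio reached it too, so the adjusted test could not decide. Left-out libraries moved the log2 difference between -4.93 and -3.79.

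At week 8 the comparison of IUGR with NS asked whether prenatal dexamethasone was followed by a different interneuron profile in adulthood. None of the 10 genes passed the test, with 0% of all 15999 genes called (edgeR, adjusted p under 0.05). At an unadjusted p under 0.05 there were 161 genes (1.01%) and none of the 10, and DESeq2 on the same libraries called 1 gene, which was not among the 10. In simulated data this comparison recovered 0% of 2-fold and 26% of 4-fold changes, so the lack of calls does not exclude changes of that size. Gad1 averaged 255 ± 38.5 CPM in IUGR and 271 ± 59.7 CPM in NS (log2 fold change -0.01 ± 0.33). Gad2 averaged 140 ± 8.34 CPM in IUGR and 152 ± 4.80 CPM in NS (-0.04 ± 0.30).

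Of the adult class markers, Pvalb averaged 48.5 ± 19.8 CPM in IUGR and 44.8 ± 21.6 CPM in NS (log2 fold change 0.20 ± 0.77), and Sst 147 ± 84.7 CPM in IUGR and 147 ± 112 CPM in NS (0.07 ± 0.63). Vip averaged 35.0 ± 18.8 CPM in IUGR and 24.2 ± 9.91 CPM in NS (0.61 ± 0.50), the largest positive value of the 10. Npy averaged 26.1 ± 1.3 CPM in IUGR and 29.2 ± 1.4 CPM in NS (-0.08 ± 0.23). Slc32a1 (-0.46 ± 0.83), Cck (-0.08 ± 0.58), Lhx6 (-0.20 ± 0.36) and Dlx1 (-0.50 ± 0.58) had negative values within their errors. In CPM of the library total, both IUGR libraries were below both NS libraries for Gad2 and Npy, 2 of 10 genes. The groups did not overlap, counting both directions, for 13.1% of all genes. With the TMM scaling between libraries that the edgeR test used, both genes overlapped. Gad2 was then 141 and 153.9 CPM in IUGR and 146.7 and 155.9 CPM in NS. Npy was 26.47 and 28.45 CPM in IUGR and 27.86 and 30.34 CPM in NS.

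Within the 2 kinds of week 8 library the differences in log2(CPM + 1) between IUGR and NS had the same sign for 6 of the 10 genes, against 47.6% of all genes. For Vip they were 0.61 in the libraries numbered 1 and 0.32 in those numbered 2, for Pvalb 0.06 and 0.22, for Npy -0.15 and -0.15, for Gad2 -0.14 and -0.09, for Lhx6 -0.0036 and -0.40 and for Gad1 -0.0044 and -0.15. Slc32a1 (0.38 and -0.74), Dlx1 (0.15 and -0.84), Sst (0.36 and -0.12) and Cck (0.11 and -0.25) had opposite signs. For these 4 genes IUGR was thus above NS in the libraries numbered 1 and below NS in those numbered 2. These signs are of CPM of the library total. With the TMM scaling of the edgeR test, Gad1 and Lhx6 had opposite signs too. In the libraries numbered 1, Gad1 was then 239 CPM in IUGR and 226 CPM in NS, and Lhx6 10.4 and 9.79 CPM. The share of all genes was not counted on that scale.

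At postnatal day 3 none of the 10 genes passed the test between IUGR and NS either, again with 0% of all genes called by edgeR. There were 96 genes (0.6%) at an unadjusted p under 0.05, none of them among the 10. DESeq2 on all libraries called none, and DESeq2 on the day 3 libraries alone called 65 genes, none of which was 1 of the 10. The fold changes were 0.08 ± 0.33 for Gad1, 0.07 ± 0.30 for Gad2, -0.20 ± 0.84 for Slc32a1, -0.35 ± 0.63 for Sst, -0.20 ± 0.53 for Vip, 0.18 ± 0.23 for Npy and 0.15 ± 0.59 for Cck. None of these 7 was larger than its standard error. Both IUGR libraries were above both NS libraries for Pvalb and below both for Lhx6 (-0.22 ± 0.35), 2 of 10 genes, against 36.3% of all genes.

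Pvalb had the largest day 3 difference, 2.18 ± 0.92 on the log2 scale (adjusted p = 1). It rested on IUGR replicate 2 with 110 counts, and without that library the value was 0.18. The same library read 95.4 CPM of Tcf7l2, a factor of thalamic neurons, against 6.41 CPM in IUGR replicate 1 and 35.4 and 16.7 CPM in NS. A list of 25 genes of hypothalamus, thalamus and septum summed to 314 CPM in it, against 167 CPM in IUGR replicate 1 and 188 and 166 CPM in NS. The sum includes Tcf7l2 itself, and also Lhx9, with 43.6 CPM against 5.95 CPM in IUGR replicate 1 and 18.1 and 9.48 CPM in NS. Not every gene of the list was highest there, since Avp read 4.35 CPM against 3.57 CPM in IUGR replicate 1 and 10.2 and 12.7 CPM in NS. The part of these genes in the Pvalb value was not tested. The IUGR effect on Pvalb at week 8 minus that at day 3 was -1.99 ± 1.19 (log2; adjusted p = 1).

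Dlx1 differed by 0.67 ± 0.57 at day 3, with 32.6 CPM in IUGR replicate 1 and 14.9 CPM in replicate 2. The olfactory and caudal eminence factor Sp8 was also highest in that library, with 14.8 CPM and 8.49 CPM in the 2 IUGR libraries and 5.85 and 7.19 CPM in NS. Dlx2, the neighbour of Dlx1 in the genome, read 7.88 and 4.24 CPM in IUGR and 5.71 and 4.74 CPM in NS. Their relation to the Dlx1 value was not tested. Without IUGR replicate 1 the Dlx1 difference was -0.04.

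**Figure D3:**
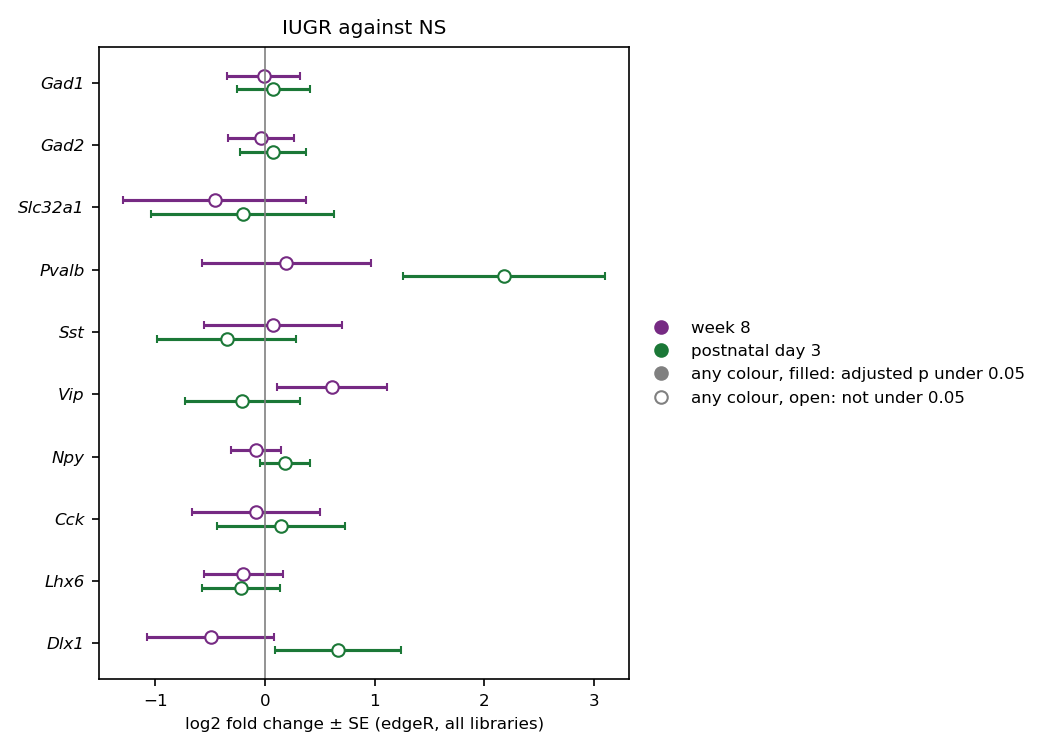
IUGR against NS: log2 fold change ± SE of each gene at week 8 (purple) and postnatal day 3 (green), from edgeR over all 8 libraries; open points did not reach an adjusted p under 0.05. No point is filled, and Pvalb at day 3 (2.18) is the farthest from 0.

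In the other gene lists no gene was called between IUGR and NS at either age. Of 11 genes of GABA turnover, 4 were above 0 and 7 below at week 8 (median log2 fold change -0.04), and 7 and 4 at day 3 (0.01). Of 25 genes of parvalbumin cells and their net, 7 were above 0 and 18 below at week 8 (-0.11), and 15 and 10 at day 3 (0.05). The medians over all genes were 0.02 and 0.01. All 12 choroid plexus genes and all 13 meningeal genes were below 0 at both ages, with medians of -3.05 and -0.98 at week 8 and -0.74 and -0.91 at day 3. The choroid plexus genes summed to 344 and 199 CPM in week 8 IUGR, 8832 and 219 CPM in week 8 NS, 3465 and 514 CPM in day 3 IUGR and 148 and 6653 CPM in day 3 NS, so that 1 NS library stood far above the other 3 at week 8, 1 library of each treatment was high at day 3 and the groups overlapped at both ages. The meningeal genes summed to 1226 and 732 CPM in week 8 IUGR and 2624 and 574 CPM in week 8 NS, which overlapped, and to 515 and 567 CPM in day 3 IUGR against 1349 and 1150 CPM in day 3 NS. Whether the share of these tissues in the RNA bears on the CPM of the interneuron genes was not tested.

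The largest contrast among the adult libraries lay between the 2 replicates of each group. For all 10 genes the difference of replicate 2 minus replicate 1 in log2(CPM + 1) had the same sign in IUGR and in NS, as it had for 81.4% of all genes. Pvalb was lower in replicate 2 by -0.84 in IUGR and -1.0 in NS, and Vip by -1.12 and -0.82. The other 8 genes were higher in replicate 2, most of all Slc32a1 (1.46 in IUGR and 2.58 in NS), Sst (1.24 and 1.72) and Cck (1.12 and 1.49), and least Npy (0.10 and 0.10) and Gad2 (0.12 and 0.06). Differences over 1 were found in 4 of the genes in IUGR and 5 in NS (19.1 and 24.7% of all genes). At day 3 only 2 of the 10 genes, Npy and Lhx6, had the same sign in both groups (50.8% of all genes), and differences over 1 were found in 2 genes in IUGR, Pvalb and Dlx1, and none in NS (1.51 and 1.06% of all genes). Of the 25 excitatory neuron genes 19 were higher in replicate 2 of both week 8 groups, among them Camk2a with 761.5 and 4854 CPM in IUGR and 682 and 5325 CPM in NS, while Neurod6 read 133 and 198 CPM in IUGR and 180 and 173 CPM in NS.

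**Figure D4:**
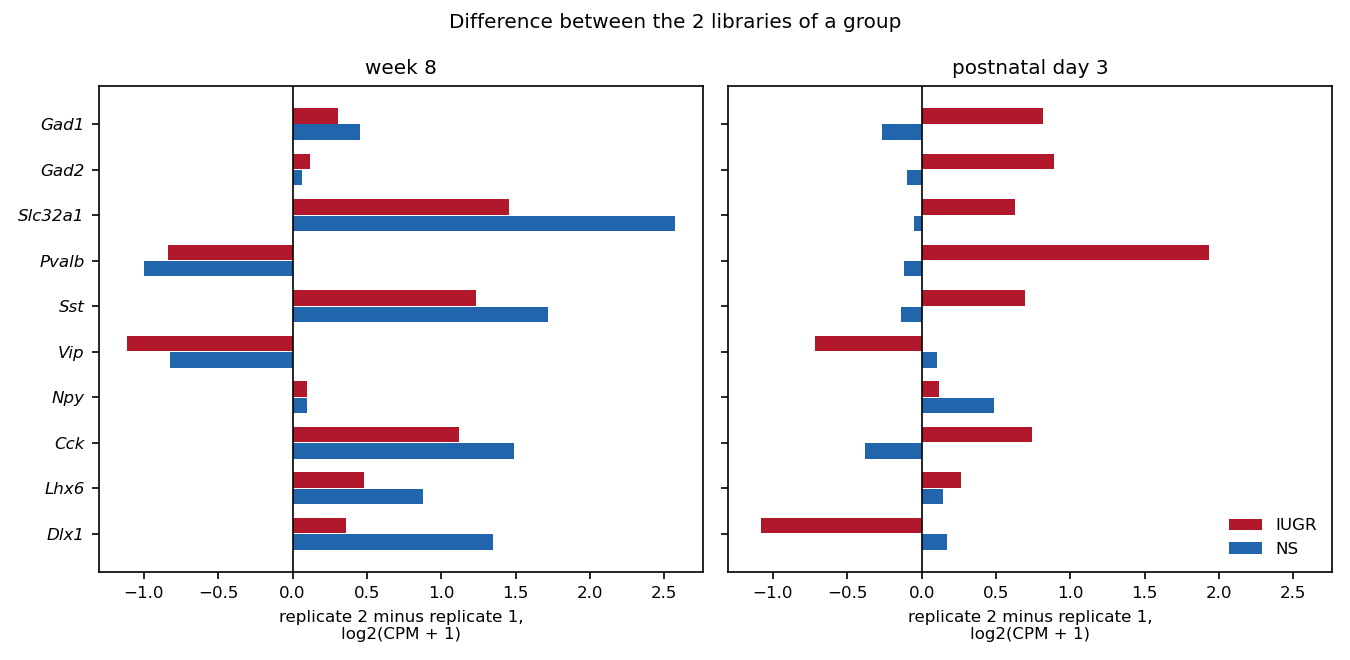
Replicate 2 minus replicate 1 in log2(CPM + 1) for each gene, in IUGR (red) and NS (blue), at week 8 (left) and postnatal day 3 (right). At week 8 the 2 bars of each gene point the same way, with Pvalb and Vip to the left and the other 8 to the right; at day 3 they do so for Npy and Lhx6.

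Likeness across the 8 libraries was described as the root mean square difference of centred log2(CPM + 1) between a member and each of 14627 other genes, which share library, depth and age with it. Nearest to Gad1 was Aldh5a1, the succinate semialdehyde dehydrogenase of GABA breakdown (0.11), then Lypd1 (0.122), and Aldh5a1 was also the third nearest to Gad2 (0.138) after Rab27a (0.0982) and A730017L22Rik (0.131). Sst lay nearest to Mov10 (0.13), Sgsm2 (0.131) and Tspan17 (0.132), and Lhx6 to Nav1 (0.108), Soga1 (0.12) and Fbxw9 (0.136). Pvalb had no close neighbour, the nearest being Il33 at 0.434, Spink8 at 0.579 and Sept4 at 0.59. These distances are descriptions over 8 libraries of 2 ages and carry no test.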

How the data were processed

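Total RNA of whole hippocampus was extracted with Trizol, depleted of ribosomal RNA with a Ribo-Zero kit and sequenced from random-primed cDNA in paired ends, per the labels' protocols. Reads were processed against build mm10 with tools that include HISAT2 2.1.0 and featureCounts 1.6.1, per the submitters' processing notes, which also list DESeq2 1.26.0, cutadapt 1.16 and SAMtools 1.9. Which annotation release and strand setting the counting used is not given in the sources used here. The authors deposited raw counts per gene symbol with a gene length, 1 table per age (24421 genes). Their normalized tables were not used.

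The 10 genes and the 16 gene lists were chosen with earlier results of these data known. Counts of all 8 libraries were fitted as 4 group means with edgeR 4.0.16 (R 4.3.3): TMM scaling, filterByExpr (minimum count 10, 15999 genes kept), quasi-likelihood F test, Benjamini-Hochberg adjustment over all genes, threshold 0.05. SE is the log2 fold change divided by the square root of F. Levels are CPM of the library total. The pseudocount was 1 CPM where log2(CPM + 1) is used. Within-library ratios were compared by an exact permutation test (SciPy 1.17.1). Besides the 10 genes, up to 3 higher and 3 lower called genes with the largest change and at least 1 CPM in a group were named from each of 5 lists, of which some are not reported here; other genes were chosen after their values were seen. Scripts were tested on simulated data with 50 changed genes. For IUGR against NS at week 8, 0% of 2-fold, 26% of 4-fold, 58% of 8-fold and 80% of 16-fold changes were recovered. For the averaged comparison of ages the shares were 4, 68, 88 and 96%. Replicates differed beyond sampling noise (chi-square per degree of freedom between 16 and 317.7), so none was entered more than once.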

Additional observations from a re-analysis of the deposited data

How the results depend on the processing

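Scaling by RLE, by the upper quartile or without small non-coding RNA, the count filters and limma voom left the numbers of genes called over the whole table within 1.5 times those reported. No alternative called any of the 10 genes between IUGR and NS. Single week 8 libraries left out turned the sign of every week 8 IUGR value except that of Npy. The limits are 2 libraries per group, 2 kinds of library at week 8, 2 day 3 libraries that go against their label, and counts as low as 12 for Pvalb at day 3. The causes of the moves below were not tested, and a fit with fewer libraries also has fewer degrees of freedom.

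DESeq2 called 7 of the 10 genes (4581 of all) between the ages in IUGR, 6 (4116) in NS and 9 (7158) averaged, Sst among them (adjusted p = 0.0429), and 1 gene of the whole table between IUGR and NS at week 8. On 1 age alone DESeq2 called 1 gene at week 8 and 65 at day 3. With edgeR on 1 treatment alone 1497 genes were called between the ages in IUGR, and 310 in NS, and 2 of the 10 genes were called in IUGR and 1 in NS, with the calls of Pvalb in IUGR and of Vip and Lhx6 in NS lost. Under voom the week 8 IUGR value of Gad1 was 0.0041 and that of Cck 0.0219.

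Replicate numbers are shared by the groups, but with 2 pairs per age they were not taken as pairing. Replicate differences of IUGR and NS correlated across genes at 0.854 at week 8 and -0.0747 at day 3. With the replicate number as a block within each age, 7 of the 10 genes (5550 of all) were called between the ages in IUGR and 7 (5049) in NS, and none of the 10 between IUGR and NS. Under this block Slc32a1 was -0.11 in IUGR, -0.21 in NS and -0.16 averaged between the ages, Sst was -0.0097 in NS, and Cck was 0.0038 between IUGR and NS at week 8. DESeq2 on 1 age with the block called 3 genes at week 8 and 13 at day 3.

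The subsets that leave out 2 libraries were chosen after the data were seen. Without both week 8 libraries numbered 1, 2 genes of the whole table were called between IUGR and NS at week 8 and 2 for the difference of these effects, and between the ages 9 of the 10 genes (9221 of all) in IUGR, 8 (9520) in NS and 11419 genes averaged. The week 8 IUGR value of Sst was then -0.073. Without both numbered 2, the calls were 6 (6778) in IUGR, 5 (6201) in NS and 8884 averaged. The week 8 IUGR values were then 0.082 for Gad1, 0.49 for Slc32a1, 0.20 for Cck, 0.082 for Lhx6 and 0.27 for Dlx1, and the age values of Slc32a1 -0.69 in NS and -0.33 averaged and of Sst -0.27 in NS. Without both day 3 libraries numbered 2, the calls between the ages were 0 (0) in IUGR, 0 (0) in NS and 0 (42) averaged. The day 3 IUGR values were then -0.51 for Gad1, -0.48 for Gad2, 0.27 for Vip and -0.45 for Cck. The IUGR effect on Pvalb at week 8 minus that at day 3 was then 0.15.

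With 1 library left out at a time, where the lone library of a group is assumed to vary like the others, between 0 and 6 of the 10 genes (92 to 4069 of all) were called between the ages in IUGR, 0 to 4 (51 to 3801) in NS and 3 to 10 (2711 to 7542) averaged. IUGR against NS at week 8 ranged from -0.24 to 0.25 for Gad1, -0.10 to 0.012 for Gad2, -1.40 to 1.43 for Slc32a1, -0.30 to 0.77 for Pvalb, -0.68 to 1.21 for Sst, -0.086 to 1.08 for Vip, -0.75 to 0.88 for Cck, -0.61 to 0.37 for Lhx6 and -1.08 to 0.50 for Dlx1. At day 3 it ranged from -0.38 to 0.40 for Gad1, -0.43 to 0.42 for Gad2, -0.55 to 0.055 for Slc32a1, -0.79 to 0.20 for Vip, -0.066 to 0.45 for Npy, -0.27 to 0.44 for Cck and -0.045 to 1.13 for Dlx1. The Pvalb difference between the IUGR effects ranged from -2.77 to 0.0123, the age change in NS from -0.69 to 1.97 for Slc32a1 and -0.27 to 1.48 for Sst, and the log2 ratio of Slc32a1 to the decarboxylases between ages from -0.64 to 0.13.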
